A study of Mus musculus with 5 samples.

Results

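Aqp1, Aqp2, Aqp3, Aqp4, Avpr2, Scnn1a, Scnn1b and Scnn1g are the genes of the main water channels, the vasopressin receptor and the sodium channel subunits of the distal nephron. They are 8 of the 28692 genes listed in the droplet matrices, were chosen by symbol, and each symbol was found once. Their UMIs (unique molecular identifiers, 1 per captured transcript) were counted in cells of mouse kidney, mainly in principal cells of the collecting duct. Those cells were recognised by Fxyd4 and Hsd11b2, which are not among the 8 genes.

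Principal cells carry water and sodium from the tubule fluid back to the body. Vasopressin binds the receptor encoded by Avpr2 and, through cyclic AMP and protein kinase A, drives the Aqp2 channel to the apical membrane and its gene to be transcribed, while Aqp3 and Aqp4 let water leave on the basolateral side. Sodium enters through the epithelial sodium channel, an assembly of alpha, beta and gamma subunits (Scnn1a, Scnn1b, Scnn1g) controlled by aldosterone. Aqp1 is the water channel of the proximal tubule, the descending thin limb and the descending vasa recta, and loss of collecting duct aquaporins with poor urine concentration is a known feature of ureteric obstruction.

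The mice were labelled C57/BL6 and aged 8 weeks, with no transgene or deletion named, and the study used unilateral ureteric obstruction (UUO), a block placed on the ureter of a single kidney, and later removed that block. The 4 droplet libraries were sham surgery (day 0), day 2 of UUO, day 7 of UUO, and reversed UUO, the last collected 7 days after reversal on experimental day 14. Each was 1 library of 3 pooled mice, made from ice-cold digestion and sorting of live cells, so no animal can be told from another and no test between time points was possible. A further sample holds 768 Smart-seq2 wells with all time points mixed. Intervals below are 95% and cover counting error only. They do not cover differences between cells or animals. The libraries held 2739 to 5938 cells and 18649637 to 30462683 UMIs, and 2159 to 4287 cells per library were kept after filtering. The median mitochondrial share of kept cells was 33.6% in sham, 9.89% at day 2, 2.96% at day 7 and 8.29% in reversed UUO. Levels are therefore given as CPM, UMIs per 1000000 nuclear-encoded UMIs, summed over the cells of a gate. Between any pair of libraries 16 to 39 cell barcodes were shared.

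Positions were known from GENCODE (GRCm38, the build named in the submitters' notes) for 7 members, all protein-coding. Aqp2 lies on chromosome 15, from 99579055 to 99584547, and Aqp3 on chromosome 4, from 41092722 to 41098183. Aqp1 is on chromosome 6 at 55336432 to 55348555, and Scnn1a on the same chromosome at 125320659 to 125344943. Scnn1g and Scnn1b are neighbours on chromosome 7, at 121734479 to 121768475 and 121865038 to 121918514. Avpr2 is on chromosome X, at 73892102 to 73895502. RefSeq promoter windows (GRCm38.p6) were matched for 6 members. The 250 bases before the start are shown for Aqp2 and Aqp3, the most abundant water channels of the principal gate, which were both lower at day 7 than in sham. Capitals mark matches, on either strand, to a short motif of zinc finger factors such as Gata3, spelled GATAA, or to the core of the cyclic AMP response element, spelled TGACG.
Aqp2: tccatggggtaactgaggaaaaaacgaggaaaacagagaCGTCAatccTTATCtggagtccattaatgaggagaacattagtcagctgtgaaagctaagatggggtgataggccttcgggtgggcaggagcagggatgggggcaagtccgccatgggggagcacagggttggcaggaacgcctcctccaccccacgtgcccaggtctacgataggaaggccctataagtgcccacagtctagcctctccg
Aqp3: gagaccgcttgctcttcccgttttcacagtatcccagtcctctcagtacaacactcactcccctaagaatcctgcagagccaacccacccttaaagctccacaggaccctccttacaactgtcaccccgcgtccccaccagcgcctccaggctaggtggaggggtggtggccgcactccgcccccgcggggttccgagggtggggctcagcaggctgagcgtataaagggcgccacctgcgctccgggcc
The Aqp2 window (plus strand, chr15:99578806-99579055) held a match to the cyclic AMP motif starting 211 bases before the start and a match to the Gata3-type motif starting 202 bases before it, both read on the opposite strand and so printed as their reverse complements. The 2 matches did not overlap. The Aqp3 window (minus strand, chr4:41098184-41098433) held neither, and the palindromic steroid receptor motif ACANNNTGT was in neither. The start of the Aqp1 window did not match a GENCODE transcript start, so that window was not read. Of 32851 RefSeq windows of the same length, 22.6% held the first motif, 17.8% the cyclic AMP motif and 5.84% the steroid receptor motif. The Avpr2 window held 1 match to the Gata3-type motif, and the Scnn1b and Scnn1g windows had no match to any of the motifs. These are letter matches and show no binding.

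A cell entered the principal gate with at least 3 UMIs in all and both genes found, Fxyd4 (a regulator of the sodium pump) and Hsd11b2 (which protects the aldosterone receptor from glucocorticoids). A cell that also passed any of the 11 other gates was kept only if its principal UMIs were at least 3 times those of each other gate. This left 39 sham, 64 day 2, 30 day 7 and 29 reversed cells, with median depths of 3627, 8386, 4256 and 4513 nuclear UMIs. Every principal cell held at least 6 gate UMIs, so none lay at the minimum. Cells with exactly 2 UMIs of Fxyd4 and Hsd11b2, 1 of each and just outside the gate, had Aqp2 at 0, 14.1, 0 and 33.0 CPM in sham, day 2, day 7 and reversed cells. Other gates kept out 17 sham, 22 day 2, 105 day 7 and 46 reversed cells that passed the principal counts, and all 105 at day 7 also passed the phagocyte gate. The 6 phagocyte markers together reached 86.3 CPM in sham principal cells (with Cd68 at 0), 418 CPM at day 2, 1739 CPM at day 7 and 690 CPM in reversed UUO, and their part in the values below was not tested. For this reason the main principal-cell values are also given for a wider set in which only the tubule gates competed, a choice made after seeing the data. That set holds 39, 67, 93 and 38 cells. At day 7 its gate genes stood at 3770 CPM and its phagocyte markers at 2342 CPM, against 6703 and 1739 CPM in the narrow gate. The stroma, lymphocyte and urothelium lists stayed at or under 69.6 CPM in the narrow gate in every library. The 6 intercalated markers summed to 444, 164, 63.2 and 119 CPM.

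Aqp2, the vasopressin-regulated apical water channel, was the most abundant member in principal cells. Its level was 11859 CPM in sham (11335 to 12402), 6263 CPM at day 2 (6062 to 6469), 3680 CPM at day 7 (3387 to 3992) and 7488 CPM in reversed UUO (7100 to 7893). Sham was the highest library and day 7 the lowest, and no intervals overlapped. In the wider set the levels were 11859, 5865, 1781 and 5397 CPM, so sham and day 7 kept their places and day 2 and reversed UUO changed theirs. Day 7 was 3.22-fold lower than sham in the narrow set and 6.66-fold lower in the wider one. The log2 ratio of day 7 over sham was -1.69 (-1.82 to -1.55) and -2.73 (-2.84 to -2.62) in these sets. Fewer transcripts of a gene per cell and more RNA of other genes cannot be told apart in such a share. Against the gate genes themselves, Aqp2 stood at 1.18 UMIs per Fxyd4 or Hsd11b2 UMI in sham, 1.10 at day 2, 0.549 at day 7 and 1.12 in reversed UUO. The gate genes chose the cells and themselves stood at 10028, 5697, 6703 and 6707 CPM, so these ratios are a description and support no order of libraries.

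**Figure D1:**
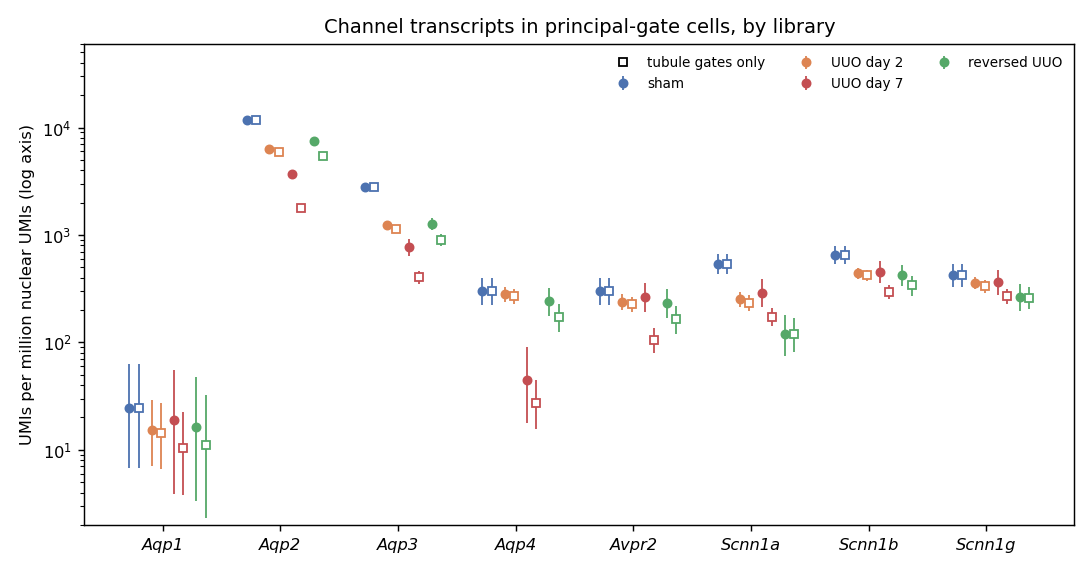
Levels of the 8 genes in principal-gate cells (CPM on a log axis, bars are 95% Poisson counting intervals; filled circles, narrow gate; open squares, tubule gates only). Aqp2 and Aqp3 are highest in sham and lowest at day 7 in both cell sets, and Aqp1 stays under 25 CPM.

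The sums hid unequal cells. The median cell held 53.4 Aqp2 UMIs per 10000 nuclear UMIs in sham, 55.9 at day 2, 31.7 at day 7 and 35.2 in reversed UUO, so the median sham and day 2 cells were alike while their sums differed. The highest sham cell held 17.6% of all Aqp2 UMIs of its gate, and the highest reversed cell held 31.4%. Without the highest cell of each library the levels were 10797, 5968, 3413 and 5605 CPM, with day 2 then above reversed UUO. Of the reversed cells 7 of 29 had no Aqp2 UMI, against 1 of 39 in sham, 0 of 64 at day 2 and 1 of 30 at day 7. At equal depth of 1000 UMIs, 94.7% of sham cells (82.3 to 99.4%), 90.6% of day 2 cells (80.7 to 96.5%), 86.7% of day 7 cells (69.3 to 96.2%) and 69.0% of reversed cells (49.2 to 84.7%) held an Aqp2 UMI. Only 1 sham cell was too shallow to be thinned. Without thinning the shares were 97.4%, 100%, 96.7% and 75.9%. In phagocyte and lymphocyte cells, which should lack Aqp2 and show the free RNA of the suspension, the thinned shares were 1.18%, 2.34%, 0.745% and 1.74% at median depths of 2418, 8356, 5921 and 5032 UMIs. The wider set had thinned shares of 94.7%, 88.1%, 53.8% and 57.9%, and its day 7 share was well below that of the narrow gate.

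**Figure D2:**
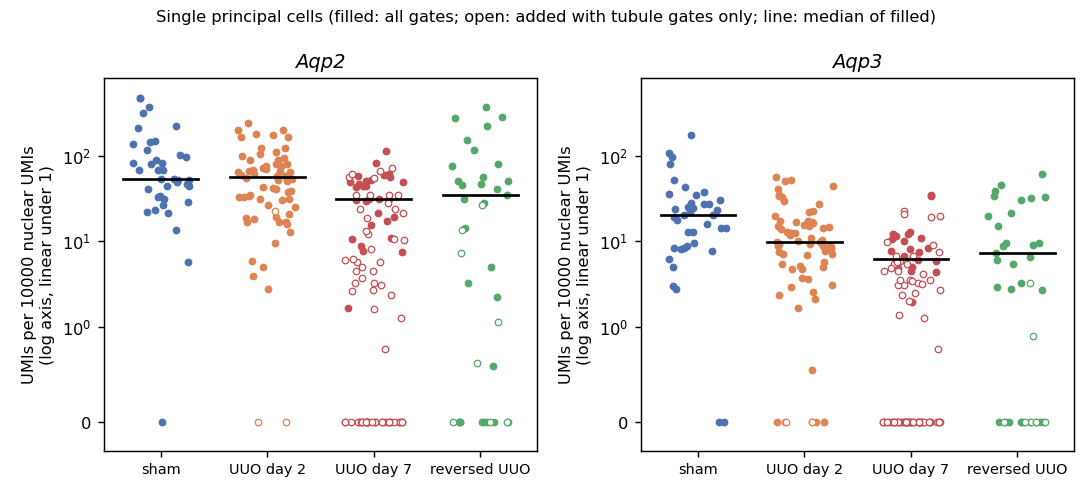
Aqp2 and Aqp3 UMIs per 10000 nuclear UMIs in single principal cells (vertical axis logarithmic and linear under 1; filled, narrow gate; open, cells added when only tubule gates compete; line, median of filled cells). The Aqp2 medians are 53.4, 55.9, 31.7 and 35.2, and the reversed library has both cells at 0 and cells above the sham median.

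Aqp3, a basolateral water and glycerol channel, stood at 2806 CPM in sham (2554 to 3076), 1227 at day 2 (1139 to 1320), 771 at day 7 (641 to 921) and 1277 in reversed UUO (1119 to 1450). The day 2 and reversed intervals overlapped, with sham above both and day 7 below both. Its median per cell was 20.5, 9.84, 6.32 and 7.34 per 10000 UMIs. Unlike Aqp2, the median day 2 cell was thus lower than the median sham cell. The wider set gave 2806, 1148, 403 and 902 CPM. The log2 ratio of day 2 over sham was -1.19 (-1.36 to -1.02), that of day 7 over sham -1.86 (-2.16 to -1.57) and that of reversed over sham -1.14 (-1.37 to -0.91). Reversed over day 7 gave 0.73 (0.41 to 1.05), but -0.69 when Hsd11b2 alone chose the cells (6 at day 7). Aqp2 UMIs per Aqp3 UMI were 4.23, 5.10, 4.77 and 5.86, with the lowest value in sham and the highest in reversed UUO. Reversed over sham gave -0.66 (-0.76 to -0.56) for Aqp2, an interval that did not overlap that of Aqp3. Without the highest cell of each library, given above, reversed Aqp2 lay further below sham. These contrasts of Aqp2 with Aqp3 in reversed UUO therefore lean on its highest Aqp2 cell. Both were found together in 36 of 39 sham, 60 of 64 day 2, 21 of 30 day 7 and 18 of 29 reversed cells.

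Aqp4, the other basolateral water channel, was rarer. It stood at 302 CPM in sham (224 to 400), 281 CPM at day 2 (240 to 328), 44.3 CPM at day 7 (17.8 to 91.2) and 242 CPM in reversed UUO (177 to 324). Only day 7 lay apart from the others, on 7 UMIs in 6 cells (27.5 CPM in the wider set). The log2 ratio of day 7 over sham was -2.74 (-4.09 to -1.61), 6.83-fold lower, and that of reversed over day 7 was 2.43 (1.28 to 3.78). After thinning each cell to 1000 UMIs the latter turned to -0.53, on 2 and 3 cells with a UMI. A few cells carried the gene, since the highest sham cell held 46.9% and the highest reversed cell 46.7% of its UMIs. Without those cells the levels were 177 CPM in sham, 248 at day 2, 33.3 at day 7 and 138 in reversed UUO, so sham and day 2 changed places. The order of these libraries also turned with trimmed-mean (TMM) scaling (log2 ratio 0.11) and with CPM over all UMIs (0.03), so no direction is given for Aqp4 at day 2. All Aqp4-positive cells of the narrow gate, 8, 32, 6 and 7 in order of library, also held Aqp2.

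Avpr2, the vasopressin receptor that couples to cyclic AMP, showed no such drop in the narrow gate. Its level was 302 CPM in sham (224 to 400), 240 at day 2 (202 to 283), 266 at day 7 (191 to 359) and 232 in reversed UUO (168 to 312), and all intervals overlapped. The log2 ratio of day 7 over sham was -0.19 (-0.81 to 0.44), which leaves room for a change of either sign. In the wider set day 7 was at 105 CPM (80.3 to 135), with a log2 ratio to sham of -1.52 (-2.08 to -0.95). The Avpr2 level at day 7 therefore depends on which cells are counted. After reversal 1 cell held 46.5% of the Avpr2 UMIs, and without it the level was 132 CPM.

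Of the sodium channel subunits, Scnn1a (alpha) was at 537 CPM in sham (430 to 662), 251 at day 2 (212 to 294), 291 at day 7 (213 to 388) and 119 in reversed UUO (74.3 to 179). Sham was highest and reversed UUO lowest, with day 2 and day 7 overlapping between them. The reversed library was 4.53-fold lower than sham (log2 ratio -2.17, -2.91 to -1.49) and also lower than day 7 (-1.29, -2.08 to -0.53). In the wider set Scnn1a was at 174 CPM at day 7 and 119 CPM in reversed UUO, 1.46-fold apart with an interval that included 0 (-0.54, -1.16 to 0.04). Day 7 was the lower of the pair when cells of several gates were kept (0.14) or when clusters replaced the gate (0.45), so the Scnn1a difference between reversed UUO and day 7 depends on the cells counted. After thinning, or with each cell weighted equally, this Scnn1a difference did not reach 2-fold. Scnn1b (beta) was at 654 CPM (535 to 791), 440 (388 to 497), 455 (356 to 573) and 426 (337 to 530). Scnn1g (gamma) was at 426 CPM (331 to 539), 358 (311 to 410), 367 (278 to 474) and 264 (195 to 349). For beta the later libraries lay close together below sham, with only the day 7 interval reaching that of sham, and for gamma all 4 intervals overlapped. The wider set moved day 7 to 296 CPM for Scnn1b and 270 CPM for Scnn1g.

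The balance of the subunits differed between libraries. Of the UMIs of the 3 subunits, Scnn1a made up 33.2% in sham (27.5 to 39.3%), 23.9% at day 2 (20.6 to 27.5%), 26.1% at day 7 (19.8 to 33.3%) and 14.7% in reversed UUO (9.43 to 21.4%). The sham and reversed intervals did not overlap, and the wider set gave 23.5% at day 7 and 16.6% in reversed UUO. UMIs of all 3 subunits were found in 19 of 39 sham, 42 of 64 day 2, 15 of 30 day 7 and 14 of 29 reversed cells, and the intervals of these shares overlapped. Day 2, at 65.6% (52.7 to 77.1%), was also the deepest library per cell. No subunit was seen in 1, 2, 1 and 3 cells.

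Calls were read against all genes. A gene was counted with at least 30 summed UMIs in the pair of libraries and at least 50 CPM in the higher one, and called at 2-fold or more. Of the 8 members 7 passed this floor in every comparison, and Aqp1 did not. At day 2 against sham 2 members (Aqp3 and Scnn1a) were lower, where 8.04% of 3633 genes were 2-fold or more lower, and Aqp2 just missed the fold at -0.92. With TMM scaling neither of the 2 reached the fold. Scnn1a also missed it with a mitochondrial limit of 20% (-0.70), CPM over all UMIs (-0.96), each cell weighted equally (-0.89) or thinning (-0.96), and turned to 0.92 without the cells holding a Calb1 UMI. At day 7 against sham 3 members (Aqp2, Aqp3 and Aqp4) were lower, where 10.4% of 1851 genes were. After thinning or with several gates kept 6 members were lower, and with clusters 7. With Hsd11b2 alone choosing the cells (6 at day 7), Aqp2 (-0.97) and Aqp3 (-0.48) did not reach the fold. At day 7 against day 2 Aqp4 alone was lower, at a background of 7.62%, and none was higher (4.16%). After thinning the Aqp4 ratio was -0.49 and no member was called. With Fxyd4 alone choosing the cells (3 at day 7) Scnn1a was higher (1.03), and with Hsd11b2 alone (6 at day 7) it was lower (-1.08). Between reversed UUO and day 7, Aqp2 (just past the fold, at 1.02) and Aqp4 were higher (background 4.29%) and Scnn1a was lower (3.12%). Fewer members were called higher with TMM, CPM over all UMIs, a mitochondrial limit of 20% or several gates kept. The same held with each cell weighted equally or without the highest cell, while Fxyd4 alone called more. After thinning neither Aqp2 (0.97) nor Aqp4 (-0.53) was called, and with Hsd11b2 alone Aqp2 was at 0.64. Scnn1a was not called lower after thinning, with each cell weighted equally, several gates kept, clusters or tubule gates only. Between reversed UUO and sham, Aqp3 and Scnn1a were lower (7.64%). With the mitochondrial limit of 20% or Hsd11b2 alone 4 members were lower, and with several gates kept or clusters 6. Aqp3 did not reach the fold with CPM over all UMIs (-0.98), nor Scnn1a without the cells holding a Calb1 UMI (-0.51). No member was 2-fold or more higher than sham in any library of the narrow gate, at backgrounds of 10.3% at day 2, 5.83% at day 7 and 5.74% in reversed UUO. Without the cells holding a Calb1 UMI, Scnn1a was higher at day 7 (437 CPM) than in sham (117 CPM), on 10 and 3 UMIs. In the wider set Aqp2, Aqp3 and Scnn1a were lower at day 2 than in sham (background 8.43%, with none higher at 10.9%) and lower in reversed UUO than in sham (9.72%, with none higher at 8.27%). Aqp2, Aqp3 and Aqp4 were higher in reversed UUO than at day 7 (3.37%), and none was lower (3.52%). In that set 6 members were lower at day 7 than in sham, all but Scnn1g and Aqp1, at a background of 12.1%, and 4 were lower than at day 2 (Aqp2, Aqp3, Aqp4 and Avpr2), at 4.66%, with none higher (5.10%). The median log2 ratio of the 7 members at day 7 over sham was -0.88 in the narrow gate, where that of all genes was -0.10. These comparisons share libraries and are not independent of each other.

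**Figure D3:**
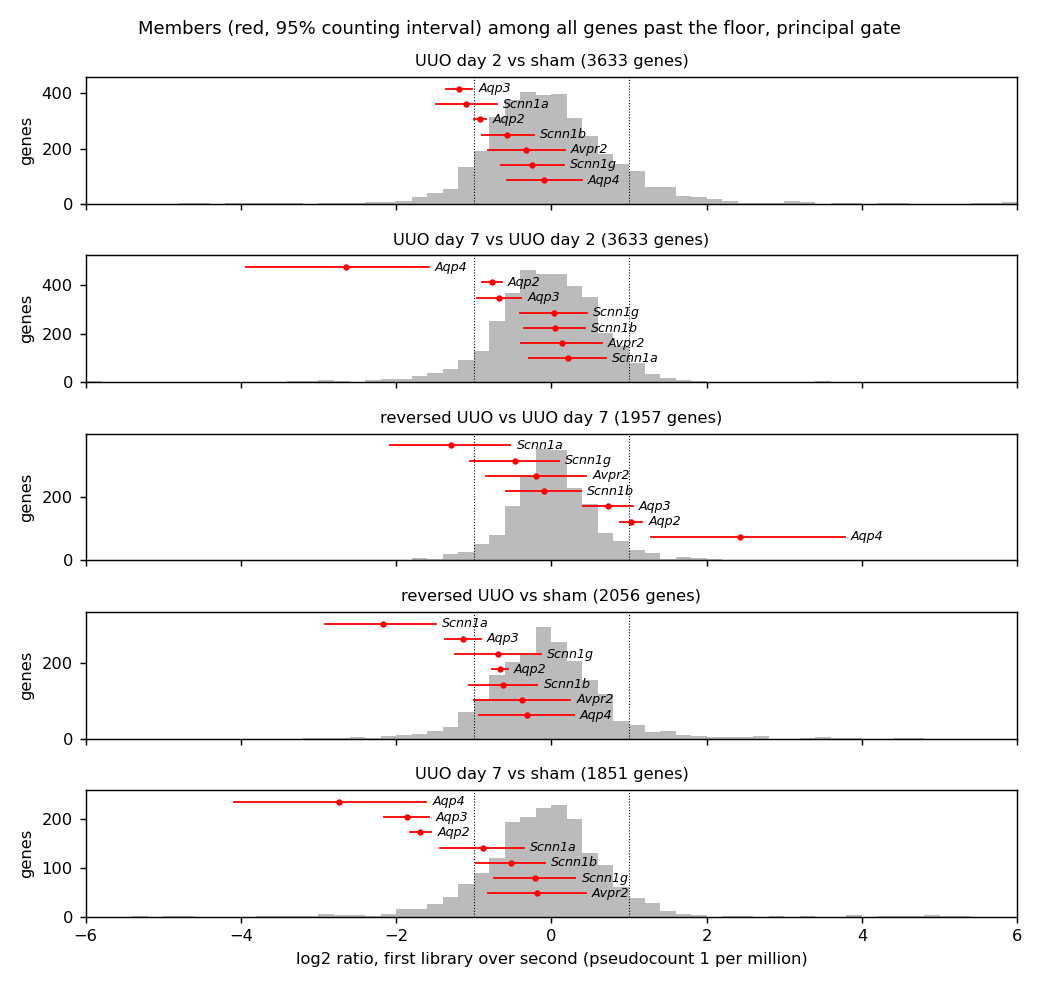
Log2 ratios of the members that passed the floor (red points with 95% counting intervals) above the histogram of all genes that passed it, for the 5 comparisons in the principal gate (horizontal axis, log2 ratio; vertical axis, genes; dotted lines, 2-fold). Aqp2, Aqp3 and Aqp4 lie left of the 2-fold line at day 7 against sham.

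Principal cells were also divided by Calb1, which encodes the calcium buffer calbindin of the connecting tubule and early collecting duct. Its level in principal cells was 1930 CPM in sham and 446, 474 and 533 CPM in the later libraries, with a Calb1 UMI in 32 of 39, 44 of 64, 23 of 30 and 14 of 29 cells. Within sham, the 32 cells with Calb1 had Scnn1a at 616 CPM (491 to 762) and Aqp4 at 95.3 CPM (50.7 to 163). The 7 cells without it had Scnn1a at 117 CPM (24.1 to 341) and Aqp4 at 1401 CPM (981 to 1939), and they were shallower (median 1878 against 4177 UMIs). Aqp2 was at 10304 CPM with and 20118 CPM without Calb1. Of the 36 Aqp4 UMIs of these 7 cells, 23 were in 1 cell and 3 cells had none. Without that cell Aqp4 was at 1255 CPM (668 to 2147) on 13 UMIs, so the contrast in Aqp4 rests on 4 cells. At day 2 the values lay closer, with Scnn1a at 260 and 223 CPM and Aqp4 at 257 and 355 CPM. Among cells with Calb1, Scnn1a was at 616, 260, 266 and 159 CPM and Aqp2 at 10304, 6511, 3873 and 8238 CPM in order of library, so Aqp2 had the order of the whole narrow gate there. Among cells without Calb1, Scnn1a was at 117, 223, 437 and 81.9 CPM on 3 to 32 UMIs, and sham was no longer the highest. Scnn1a, Scnn1b and Scnn1g had 3, 15 and 5 UMIs in these sham cells and 8, 29 and 25 in the reversed ones. The Scnn1a shares of these sham and reversed cells were thus nearly equal, on too few UMIs to show whether they differ. Cells with Calb1 held 84, 91 and 64 UMIs of these subunits in sham and 14, 50 and 24 in reversed UUO. The part of this mix of cells in the Scnn1a difference was not tested.

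Outside the principal gate the members parted. Connecting tubule cells (Slc8a1, Trpv5, Calb1) numbered 11 in sham and 14 in reversed UUO, with 1 and 2 cells between. In sham they held Aqp2 at 2724 CPM and Scnn1a, Scnn1b and Scnn1g at 694, 588 and 641 CPM. In the reversed library they stood at 2010, 506, 407 and 555 CPM. Aqp2 was lower than in principal cells in both libraries. Scnn1a in the reversed library (363 to 686) was above its principal level of 119 CPM (74.3 to 179), and so was Scnn1g (405 to 743, against 195 to 349).

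Intercalated cells, which move acid and base, numbered 43, 130, 78 and 99 and held Aqp3 and Scnn1a without much Aqp2 or Scnn1g. Aqp3 was at 478 CPM in sham (396 to 572), 188 at day 2 (164 to 214), 115 at day 7 (92.0 to 142) and 259 in reversed UUO (226 to 295). Sham was again highest and day 7 lowest, and no intervals overlapped. Scnn1a was at 429 CPM (352 to 519), 207 (182 to 235), 118 (94.4 to 145) and 207 (178 to 239), with day 7 lowest here. All gates competed for these cells, and levels with tubule gates only are not given. At day 7, 48.6% of Aqp3 and 41.9% of Scnn1a UMIs lay in cells of several gates, of whatever segment. Scnn1b was at 44.6, 89.1, 66.9 and 84.3 CPM and Scnn1g at 4.05, 13.7, 9.36 and 18.5 CPM. Aqp2 was at 101, 19.7, 17.4 and 33.5 CPM, with free RNA at 18.4, 26.1, 9.21 and 17.5 CPM in the immune gates. There were 4.72, 9.52, 6.62 and 7.72 Aqp3 UMIs per Aqp2 UMI, against less than 1 in principal cells. Aqp3 was found without any Aqp2 in 27 of 34, 64 of 77, 34 of 38 and 53 of 63 Aqp3-positive cells. Aqp4 had 1 UMI in the day 2 intercalated cells and 0 in the other libraries, where 3 UMIs would be 3.46 to 12.2 CPM.

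In the thick ascending limb, the water-tight diluting segment, only the alpha subunit stood out. Scnn1a was at 226 CPM in sham (182 to 277), 122 at day 2 (104 to 143), 71.2 at day 7 (43.5 to 110) and 140 in reversed UUO (115 to 170), in 157, 199, 33 and 152 cells. These levels too are given only with all gates competing. Free RNA gave 14.7, 7.42, 7.15 and 9.43 CPM of Scnn1a in the immune gates. Scnn1g had no UMI in sham, day 7 and reversed cells and 1 at day 2, and the 0 in sham allows up to 7.36 CPM. Avpr2 was at 29.4, 11.6, 14.2 and 10.6 CPM there, above its free RNA of 0 to 2.08 CPM. Distal convoluted tubule cells (25, 15, 6 and 32) had Scnn1a at 224 CPM in sham, 102 at day 2 and 219 in reversed UUO, and 0 UMIs in the 6 day 7 cells, which allows up to 197 CPM. Their Scnn1g had at most 1 UMI in any library. In proximal tubule cells Aqp3 was at 38.8 CPM in sham (34.0 to 44.1) and 26.6 CPM in reversed UUO (21.7 to 32.3), where immune cells had 0 and 7.55 CPM. In sham 2796 such cells supplied 25.3% of the Aqp3 UMIs, and the principal gate supplied 48.6%. Aqp2 in the same cells was at 32.9 CPM at most, and its intervals overlapped those of free RNA in all 4 libraries.

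**Figure D4:**
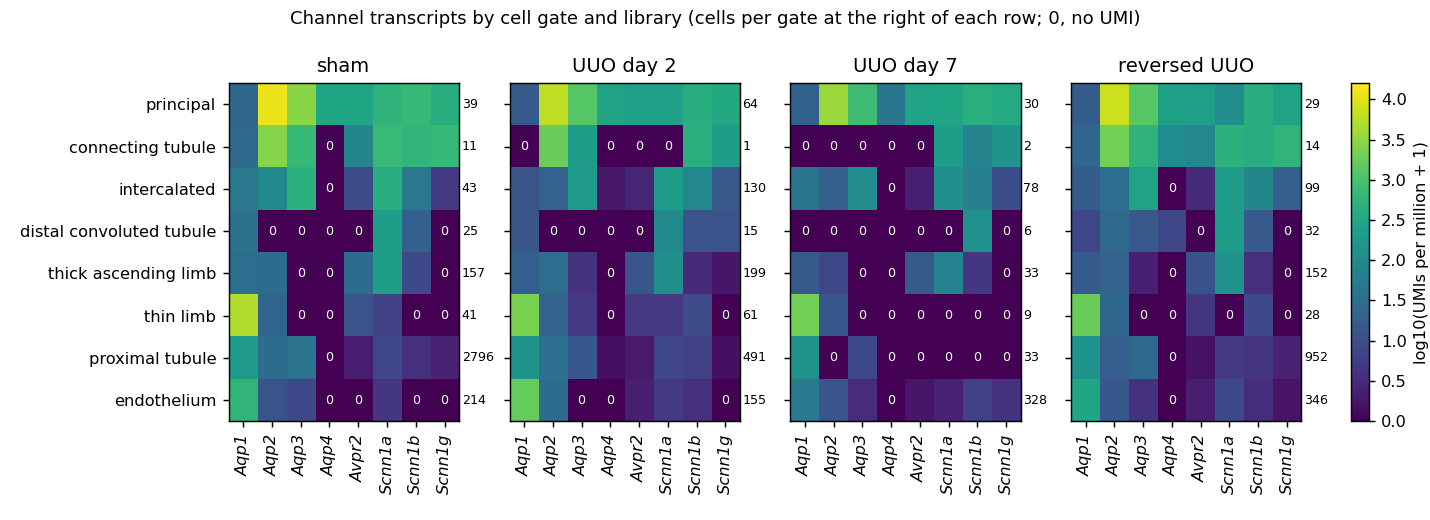
Level of each gene (colour, log10 of CPM + 1) by cell gate and library, with the number of cells at the right of each row and 0 where no UMI was found. Aqp2 is concentrated in the principal and connecting tubule rows, except the day 7 connecting tubule row (2 cells, no UMI). Aqp4 is concentrated in the principal rows, and its only connecting tubule UMIs are 9 in reversed UUO, in 2 of 14 cells. Scnn1a extends to intercalated, distal convoluted and thick limb rows, and Aqp1 occupies the thin limb, proximal tubule and endothelial rows.

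Aqp1 was no higher in principal cells than free RNA could give, within counting error. It had 4, 9, 3 and 3 UMIs in the principal gate, 24.7, 15.3, 19.0 and 16.2 CPM, where immune cells had 33.1, 14.7, 11.6 and 13.7 CPM. It was highest in thin limb cells (Bst1, Epha7, Fst, Cryab), at 5031 CPM in sham (4713 to 5365, 41 cells), 2237 at day 2 (2108 to 2372, 61 cells), 2058 at day 7 (1750 to 2404, 9 cells) and 1780 in reversed UUO (1625 to 1946, 28 cells). The later libraries were close together below sham. The gate genes themselves also differed, with Bst1 at 1414, 1002, 388 and 541 CPM, Epha7 at 151, 52.0, 38.8 and 69.9, Fst at 486, 1098, 4038 and 1026 and Cryab at 5987, 5340, 3818 and 3391. The thin limb cells gated were thus not alike between libraries, and the part of this in the Aqp1 levels was not tested. With tubule gates only, the thin limb levels were 4695, 1425, 398 and 841 CPM in 44, 82, 87 and 56 cells, so the later levels depend on the cells counted. Aqp1 was absent from 14 of 41, 21 of 61, 2 of 9 and 19 of 28 thin limb cells, and in reversed UUO the median cell had 0. Proximal tubule cells had 194 CPM in sham (183 to 205), 146 at day 2 (130 to 163), 145 at day 7 (88.4 to 224) and 145 in reversed UUO (133 to 157). They numbered 2796, 491, 33 and 952. Of the day 7 Aqp1 UMIs, 1.27% lay in this gate and 68.0% in cells that passed several gates. The day 7 level is thus that of a small selected part, and levels with tubule gates only are not given here.

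Endothelial cells gave the opposite picture at day 2. Aqp1 was at 557 CPM in sham (496 to 623), 1604 at day 2 (1513 to 1698), 50.9 at day 7 (39.2 to 65.1) and 294 in reversed UUO (268 to 322). Most of these UMIs came from few cells. Cells with at least 3 Aqp1 UMIs, a limit chosen after seeing the values, were 12 of 214 in sham (5.61%, 2.93 to 9.59%), 28 of 155 at day 2 (18.1%, with a lower bound of 12.4%), 3 of 328 at day 7 (0.915%, 0.189 to 2.65%) and 14 of 346 in reversed UUO (4.05%, 2.23 to 6.70%). They held 90.1% of the Aqp1 UMIs of the gate in sham, 98.9% at day 2 and 93.3% in reversed UUO. At day 7 the share was lower, since the 3 cells held 11, 18 and 19 of 64 UMIs. Within them Aqp1 was at 7352, 6453, 2763 and 7104 CPM, but they were chosen on Aqp1 itself, so these levels are no comparison. Slc14a1, the urea transporter known from descending vasa recta, was found in 10 of the 12 sham, 17 of the 28 day 2, 1 of the 3 day 7 and 7 of the 14 reversed cells. Its summed level in them was 1297, 611, 230 and 430 CPM, against 3.96, 1.81, 2.42 and 2.66 CPM in the other endothelial cells. The day 7 level is 4 UMIs in 1 cell, and 3 of the other day 7 cells also held the gene. At equal depth 12.7%, 15.5%, 2.13% and 5.20% of endothelial cells had an Aqp1 UMI, and the sham (8.52 to 17.9%) and day 2 (10.2 to 22.2%) intervals overlapped. In immune cells these shares were 2.35%, 1.65%, 1.06% and 1.13%. Sham cells were shallower (median 2242 against 3542 UMIs at day 2), and the part of depth in the count of cells with 3 UMIs was not tested.

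**Figure D5:**
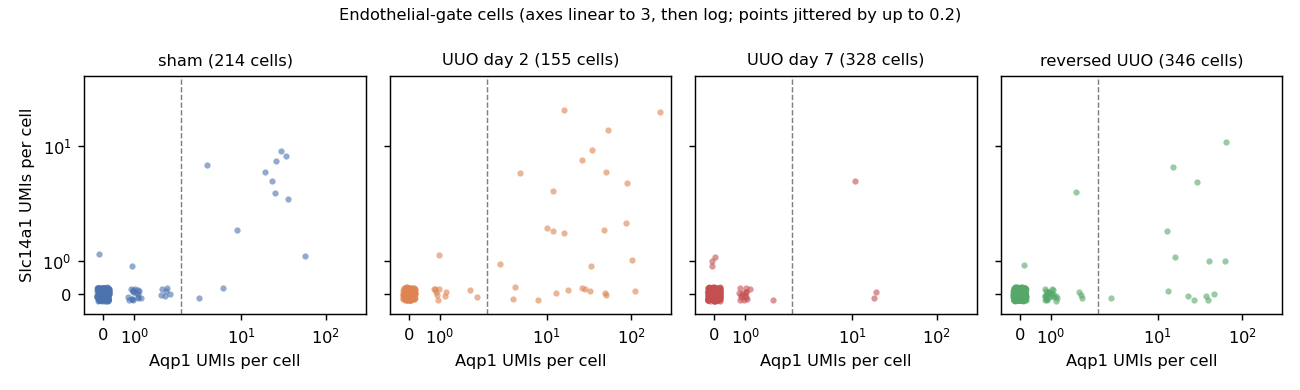
Aqp1 UMIs (horizontal) and Slc14a1 UMIs (vertical) in each endothelial-gate cell, by library (axes linear to 3, then logarithmic; points jittered; dashed line, the limit of 3 Aqp1 UMIs). Most Slc14a1 UMIs of sham, day 2 and reversed UUO lie in the 12, 28 and 14 cells right of the line, and at day 7 in 1 of 3.

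Lists of related genes were followed in the principal cells of the narrow gate, and calls are for that gate unless the wider set is named. Over sham, the shares of all genes called lower and higher were 8.04% and 10.3% at day 2, 10.4% and 5.83% at day 7 and 7.64% and 5.74% in reversed UUO. They were 7.62% and 4.16% at day 7 over day 2, and 3.12% and 4.29% in reversed UUO over day 7. In the vasopressin signalling list (20 genes) Adcy6, an adenylyl cyclase, and Ptger1, a prostaglandin E2 receptor, were lower at day 2 than in sham (46.0 against 98.7 CPM and 56.2 against 154 CPM), 2 of the 10 genes past the floor (8.04% of all genes), with none higher (10.3%). At day 2 over sham, TMM shifts log2 ratios by 0.21 and CPM over all UMIs by 0.14. Either shift would end the Adcy6 call, and any other list call of a lower gene as close to the fold. Gnas, the stimulatory G protein, was at 604, 717, 575 and 787 CPM. The list medians were -0.24 at day 2 and 0.07 at day 7 over sham, where all genes had -0.07 and -0.10. At day 7 Ptger1 (44.3 CPM) was the only one of 6 genes past the floor that was 2-fold lower than sham. Against day 2, Prkaca was lower (19.0 CPM on 3 UMIs) and Creb1 and Pde4d were higher (69.6 and 152 CPM), of 10 genes, where 7.62% of all genes were lower and 4.16% higher. The Creb1 interval included 0 (-0.17 to 2.11), and in the wider set no gene of this list was 2-fold higher in that comparison. Neither reversed comparison called a gene of this list in the narrow gate. In the wider set Ptger1 was higher in reversed UUO than at day 7 (log2 ratio 1.09, 0.02 to 2.15, on 16 UMIs each) and lower than in sham (-1.36, -2.34 to -0.40).

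Of the aldosterone and channel regulation list (16 genes), 4 of the 12 genes past the floor were lower at day 2 than in sham, where 8.04% of all genes were, and none was higher (10.3%). They were Sgk1, the kinase that aldosterone induces (376 to 123 CPM, log2 ratio -1.61, -2.12 to -1.09), the kinase Wnk1 (395 to 86.9 CPM), the aldosterone receptor Nr3c2 (92.5 to 32.4 CPM) and the transcription factor Klf9 (105 to 35.8 CPM). Wnk1 was at 280, 216, 302 and 284 CPM in the immune gates, above its principal level in every later library. The part of RNA from other cells in its principal level was not tested, so no direction is given for it. Sgk1 was at 107 CPM at day 7 and 119 CPM in reversed UUO, and with Wnk1 (126 and 172 CPM) was 2-fold or more below sham in both, of 8 and 9 genes past the floor. The proteases and inhibitors that act on the sodium channel were not called, with St14 at 154, 145, 101 and 151 CPM and Spint2 at 759, 854, 702 and 884 CPM. Usp2 was at 31.6 CPM at day 7 (5 UMIs) against 64.8 CPM at day 2, past the fold with an interval that included 0 (-2.63 to 0.31) and not called in the wider set, and no gene of this list was called between reversed UUO and day 7. The list median was -0.06 at day 2, -0.37 at day 7 and -0.03 in reversed UUO, all over sham.

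Of the sodium pump and potassium channel list (8 genes, 7 past the floor), Fxyd2, Kcnj10 and Kcnj16 were lower at day 2 than in sham. Kcnj10, a basolateral potassium channel, was at 315, 128, 88.5 and 97.0 CPM and was 2-fold lower in every later library, with Kcnq1 also lower in reversed UUO (185 to 86.2 CPM). Fxyd2, a pump subunit of other tubule segments, was at 1381, 544, 266 and 501 CPM (also called at day 7 against day 2, though not in the wider set), and immune cells held it at 1494, 580, 426 and 650 CPM, so it stood at or below its free RNA level in every library and gives no direction for principal cells. Atp1b1, the beta subunit of the pump, was at 3787, 3262, 3920 and 2915 CPM and was not called. The list medians over sham were -0.71, -0.71 and -0.98 at day 2, day 7 and in reversed UUO.

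Of the collecting duct transcription factors (10 genes), Elf3 was higher than sham at day 2, day 7 and in reversed UUO (74.0, 211, 196 and 339 CPM), and Emx1 was lower at day 2 and in reversed UUO (154, 29.0, 25.3 and 37.7 CPM). Elf5 was higher at day 2 (95.4 against 37.0 CPM) and lower again at day 7 (12.6 CPM, 2 UMIs). Gata2, Gata3, Tfcp2l1 and Hoxb7, which help set collecting duct identity, were not called in any comparison. Gata3 was at 321, 269, 272 and 264 CPM and Tfcp2l1 at 993, 539, 746 and 646 CPM. The list medians over sham were -0.45, -0.41 and -0.09. No gene of the other aquaporin and urea transporter list (10 genes) passed the floor. Aqp6, an aquaporin of intercalated cells, had 20 UMIs in sham principal cells and 7, 0 and 0 later, and Slc14a1 had none in any library.

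The collecting duct injury and stress list (14 genes) went the other way. At day 2, 7 of the 10 genes past the floor were 2-fold or more higher than sham (10.3% of all genes) and none was lower (8.04%), with a list median of 2.00. Clu, a secreted chaperone, was at 419 CPM in sham, 18761 at day 2, 9883 at day 7 and 9471 in reversed UUO. Lcn2, an iron-binding injury marker, was at 197, 4654, 1967 and 1320 CPM, and the keratin Krt19 at 18.5, 177, 139 and 221 CPM. Spp1 was at 1548, 12466, 3433 and 3351 CPM, where immune cells held 118, 6507, 3992 and 2574 CPM, while Clu in immune cells reached 800 CPM at most. Krt8 was at 185, 828, 468 and 587 CPM. At day 7, 5 of 8 genes past the floor were past the fold above sham (5.83% of all genes), and in reversed UUO 6 of 10 (5.74%). Spp1 is among the 5, but at day 7 it lay below its level in immune cells. The part of RNA from other cells was not tested, so no direction is given there. Spp1 is also among the 6 in reversed UUO, at 3351 CPM against 2574 CPM in immune cells. The part of free RNA in that call was not tested. Lcn2 and Spp1 were past the fold below day 2 at day 7 in the narrow gate, and none was called between reversed UUO and day 7. In the wider set neither reached the fold, with Spp1 at 12589 CPM at day 2 and 8592 CPM at day 7 and Lcn2 at 4432 and 2268 CPM. Clu thus stood far above sham in the same reversed library in which Aqp2 was 1.58-fold below sham.

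Over 31 points of gate and library with at least 30 cells, which share libraries, the genes outside the gates with levels most like a member were sought by Pearson correlation of log2 CPM. For Aqp2 they were Mgat4c (0.91), Col26a1 (0.90), A930017K11Rik (0.90), Aqp4 (0.89) and Sbspon (0.89). For Aqp3 they were Rhcg (0.87), 9230102O04Rik (0.87), Spink8 (0.84), Scnn1g (0.84) and Mcoln3 (0.83). For Scnn1a they were Sgpp2 (0.94), Akr1c19 (0.94), Tmem213 (0.93), Tox3 (0.93) and Tmem52b (0.93). For Aqp1 they included Hist3h2a (0.80), Afap1l1 (0.77), Angpt2 (0.76) and Mat2a (0.76). Among the members themselves Scnn1b and Scnn1g were most alike (0.90), and Scnn1a was less like Scnn1g (0.54). The value of Aqp2 with Scnn1a was 0.62, and Aqp1 was negative with each other member (-0.15 to -0.39). These values describe the spread over gates and carry no test. The limit of 30 cells left out principal cells of reversed UUO (29 cells), among others. Connecting tubule cells of every library and thin limb cells of day 7 and reversed UUO were also left out.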

How the data were processed

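The droplet values are raw UMI counts per gene and cell as deposited by the authors. Cell Ranger, STAR and GRCm38 (mm10) are named in the submitters' processing notes, with versions not given in the sources used here. For the Smart-seq2 wells the authors deposited read counts per gene, without molecular identifiers. Gene and barcode files hold names only.

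Cells under 200 genes or over 50% mitochondrial UMIs were left out, and the highest Scrublet scores were removed at 0.8% per 1000 deposited cells. Gates needed 3 UMIs from at least 2 different gate genes. Counts were summed per library and gate. Ratios are on the log2(CPM + 1) scale and so understate changes of rare genes, with exact conditional binomial intervals. Levels have exact Poisson intervals and shares Clopper-Pearson intervals, all at 95%. A count of 0 was read as up to 3 counts per library. These intervals cover counting error only. Levels of different genes are compared as 3′ UMIs, which do not scale with transcript length. No test between time points was run, since each time point is 1 library.

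Named genes are the members, list genes past the floor and the fold (at most 4 per list and comparison) with a few uncalled list genes chosen after their values were seen, and the 5 genes most like Aqp1, Aqp2, Aqp3 and Scnn1a. Some genes that this rule covers are not reported here. Members, gates and lists were chosen with earlier results of these data known. Alternatives were other filters, gates, Leiden clusters (scanpy 1.11.5), scalings (edgeR 4.0.16 for TMM factors), thinning, subtraction of free RNA and another pseudocount.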

Additional observations from a re-analysis of the deposited data

Results flagged for a closer look

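Aqp1 at day 2 against sham had opposite signs in the thin limb gate (log2 ratio -1.17, -1.30 to -1.04) and in the endothelial gate (1.53, 1.34 to 1.71), and this difference was not tested. The endothelial value rests on 28 cells with at least 3 UMIs at day 2 and 12 in sham.

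The Smart-seq2 plates, which the comparisons do not use, also held member reads. At least 10 reads were found for Scnn1a in 10 of 768 wells, for Avpr2 in 7 and for Aqp1 in 5. Aqp2 had 1071 reads, of which 1 well held 99.3%. Wells are not assigned to time points in the labels, so these values enter no comparison, and reads are not independent molecules.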

How the results depend on the processing

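No paired analysis was possible because each group is 1 library, and no library could be left out of a group. Across 17 alternatives for the 35 member ratios in the principal gate, 429 of 595 values lay within the counting interval of the value reported, 162 lay outside it and 4 had the opposite sign of a called value. Aqp2 was lower at day 7 than in sham under all 17 (-3.56 to -0.97), as were Aqp3 (-3.70 to -0.48) and Aqp4 (-8.83 to -1.52). A value as low as -8.83 depends on the 1 CPM added before the log2 and is not read as a size. Aqp2 was higher in reversed UUO than at day 7 under all 17 (0.64 to 2.58). The opposite signs were Scnn1a between reversed UUO and day 7 with cells of several gates kept (0.14) or with clusters (0.45), Scnn1a at day 2 over sham without cells holding a Calb1 UMI (0.92), and Aqp4 between reversed UUO and day 7 after thinning (-0.53, on 2 and 3 cells). The cause was not tested. At least 500 genes, no doublet removal and at least 6 gate UMIs left the same cells. Their values had to equal those reported, and they are counted among the 17 alternatives and the 429 values. The numbers of members called that moved most were as follows. At day 2 against sham, the number lower was 5 with clusters, 1 with CPM over all UMIs, 1 with each cell equal and 0 with TMM, against 2. At day 7 against day 2, the number lower was 4 with Fxyd4 alone (3 day 7 cells), with several gates kept, with clusters or with tubule gates only, 2 with Hsd11b2 alone (6 day 7 cells) or without Calb1 cells, and 0 after thinning, against 1, and 1 was higher with Fxyd4 alone, against 0. At day 7 against sham, the number lower was 6 with several gates kept, with tubule gates only or after thinning and 7 with clusters, against 3, and 1 was higher without Calb1 cells, against 0. Between reversed UUO and day 7, the number lower was 0 with several gates kept, clusters, tubule gates only, each cell equal or thinning, against 1. The number higher was 4 with Fxyd4 alone, 0 after thinning, and 1 with a mitochondrial limit of 20%, Hsd11b2 alone, several gates kept, all UMIs, TMM, each cell equal or without the highest cell, against 2. Between reversed UUO and sham, the number lower was 4 with the limit of 20% or Hsd11b2 alone, 6 with several gates kept or clusters and 1 with all UMIs, against 2. Smaller moves included 2 against 3 lower at day 7 over sham with Hsd11b2 alone. With tubule gates only they were 3 against 2 lower at day 2 and in reversed UUO over sham, and 3 against 2 higher in reversed UUO over day 7. Tubule gates only, leaving out Calb1 cells and leaving out the highest cell were chosen after seeing the data. Against sham, TMM shifted log2 ratios by 0.21 at day 2 and 0.11 at day 7. The share of higher among called genes at day 2 was 56.3%, 77.6% with TMM and 68.0% with all UMIs. At day 7 it was 35.9%, 46.3% and 55.9%, and in reversed UUO 42.9%, 46.9% and 59.1%, all against sham. It was 35.3%, 23.0% and 46.3% at day 7 against day 2. The 29 to 64 principal cells per library limit all ratios of the rarer members.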
